A study of Schizosaccharomyces pombe with 12 samples.

Results

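The hexose transporter genes ght1, ght2, ght3, ght4, ght5, ght6 and ght8 of fission yeast (Schizosaccharomyces pombe) were followed together with fbp1 and inv1, a pair of enzyme genes known to be repressed by glucose. They were chosen by the systematic IDs of their rows, and all 9 have a row among the 5136 rows of each count table. The study sequenced ribosome footprints, the RNA fragments of 28 to 32 nt that a ribosome shields from nuclease, and total RNA from cells in mid-log growth. The groups were delta4dus and wild type, with 3 libraries (A, B and C) per genotype and assay, 12 in all. The name delta4dus was read as a strain without dus1, dus2, dus3 and dus4, whose enzymes reduce uridine to dihydrouridine in RNA. The culture medium, its glucose content and the way the genes were deleted are not given in the sources used here. Footprints of dus1 numbered 0, 0 and 0 in delta4dus, against 65, 25 and 38 in wild type, and those of dus3 0, 1 and 1 in delta4dus, against 149, 48 and 66 in wild type. Those of dus2 numbered 7, 3 and 4 in delta4dus, against 46, 14 and 11 in wild type, while dus4 kept 6, 7 and 22 in delta4dus, against 24, 9 and 16 in wild type. The footprint libraries held 1747608, 1994277 and 2591755 counts in delta4dus and 1725344, 601969 and 750887 in wild type, so a low level is measured least well in wild-type libraries B and C. The total RNA libraries held 1886954 to 2199320 counts.

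Ght proteins are sugar carriers of the plasma membrane that take up hexoses together with protons. Ght5 is the high-affinity carrier on which fission yeast depends when glucose is scarce. Cells growing on ample glucose keep fbp1 and inv1 nearly silent through the cAMP and protein kinase A pathway and the repressor Scr1, and induce them when glucose runs out. RefSeq annotates Ght1 and Ght5 as high-affinity glucose carriers, Ght2 and Ght6 as glucose and fructose carriers, Ght3 as a gluconate carrier, and Ght4 and Ght8 only as hexose transporters.

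Each of the 7 ght coding sequences is a single exon, and some stretches are nearly or wholly identical between genes, so a short footprint from such a stretch cannot be given to one gene by its sequence. The stretch below is shown because all 7 genes align over it without a gap. It starts at the first codon past the middle of the longest run that ght5 and ght8 share, so their identity here comes from that choice. It was read from the RefSeq annotation of assembly ASM294v3, which is not the ASM294v2 build named in the submitters' processing notes. It covers 90 bases of the coding strand, from coding position 1132 to 1221 in ght1, ght3, ght4, ght5 and ght8, from 1138 to 1227 in ght6 and from 1144 to 1233 in ght2. Capitals mark bases that differ from ght5.
ght8: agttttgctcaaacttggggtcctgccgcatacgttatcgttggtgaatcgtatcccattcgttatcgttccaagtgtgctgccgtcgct
ght5: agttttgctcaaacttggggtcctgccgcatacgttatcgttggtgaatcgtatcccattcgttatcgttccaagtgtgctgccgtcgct
ght6: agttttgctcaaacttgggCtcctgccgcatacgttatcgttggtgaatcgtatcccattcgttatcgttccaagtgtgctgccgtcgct
ght1: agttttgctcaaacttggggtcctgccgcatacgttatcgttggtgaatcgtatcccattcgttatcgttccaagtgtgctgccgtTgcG
ght2: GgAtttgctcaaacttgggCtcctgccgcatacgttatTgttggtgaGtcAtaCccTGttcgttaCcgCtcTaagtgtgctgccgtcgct
ght4: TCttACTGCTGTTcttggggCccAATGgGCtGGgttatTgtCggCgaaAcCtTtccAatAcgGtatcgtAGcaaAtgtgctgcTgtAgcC
ght3: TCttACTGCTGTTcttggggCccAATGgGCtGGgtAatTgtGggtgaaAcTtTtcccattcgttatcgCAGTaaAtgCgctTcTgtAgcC
The letters of ght8 and ght5 are the same over the whole stretch. In it ght6 differs from ght5 at 1 base, ght1 at 2, ght2 at 12, ght4 at 35 and ght3 at 36.

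Over whole proteins, Ght5 and Ght8 were identical at 91.6% of 545 aligned positions and Ght3 and Ght4 at 86.9% of 550. Ght1 and Ght5 were identical at 77.3%, and Ght2 matched the other carriers at 59% to 73.5%. To see how far a footprint can tell the genes apart, all windows of 28 nt in a coding sequence were looked up in the others. Of the 1614 windows of ght5, 767 were also in ght8, with a longest identical run of 248 bases. A window occurred in some other annotated coding sequence for 49.3% of ght8, 47.8% of ght5, 15.9% of ght3, 15.8% of ght1 and of ght4, 8.98% of ght6 and 0.892% of ght2, and for 0% of fbp1 and inv1. How the authors' counting treated reads that match several genes is not given in the sources used here. Values of ght5, ght8, ght1 and ght6 are thus uncertain as single genes, and so are those of ght3 and ght4, which share 261 windows. The sum of ght5, ght8, ght1 and ght6 does not change with reads moved among them, but would with reads left out. The only windows ght2 shared were 14 with ght6.

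**Figure D1:**
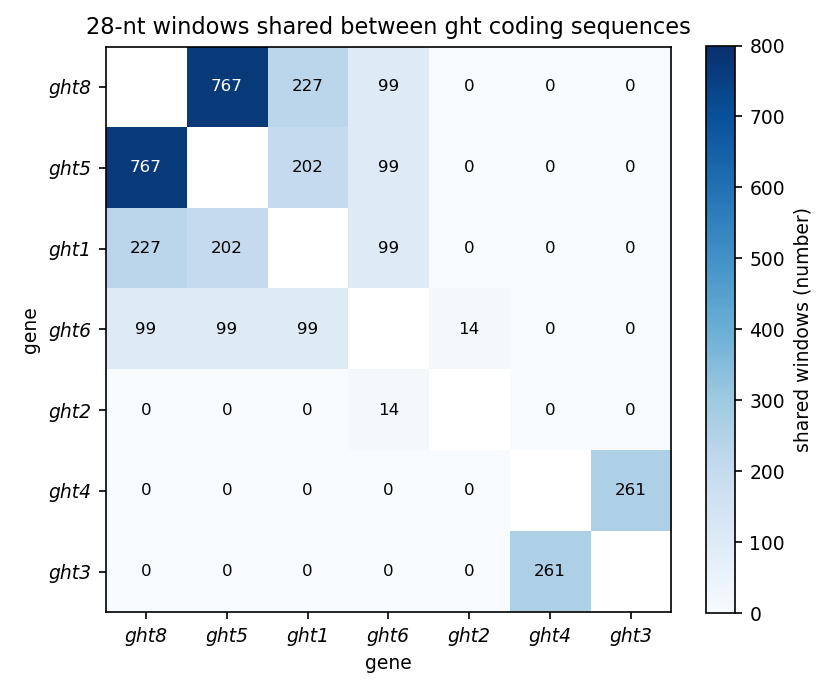
Number of 28-nt windows shared between each pair of the 7 ght coding sequences, with genes on both axes and darker blue for more shared windows. The pair of ght8 and ght5 shares 767 windows, ght3 shares windows only with ght4 (261), and ght2 shares none with any gene but ght6 (14).

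Footprints of 4 carrier genes, ght5, ght8, ght6 and ght1, were lower in delta4dus, and those of ght2 were higher. The changes ran from 2.14-fold lower for ght1 to 2.98-fold lower for ght5, and ght2 was 1.84-fold higher. Ght4 did not pass the test, and ght3, fbp1 and inv1 had too few footprints to be tested. Levels are given as CPM, the count scaled to the library's total after TMM scaling, and differences as log2 fold changes, delta4dus over wild type, with their standard error (SE). Adjusted p-values are from edgeR's quasi-likelihood test with Benjamini-Hochberg adjustment over all 4505 genes tested, and genes under 0.05 are called. Of those genes, 28.6% were called, 14.1% lower and 14.5% higher in delta4dus, so calls were frequent in both directions.

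Ght8 (SPCC548.06c.1), the carrier with the highest footprint level of the family, had 301, 300 and 280 CPM in delta4dus, against 669, 742 and 690 CPM in wild type. Every delta4dus library was under every wild-type library, as in 19.8% of the genes tested, and 38.8% of genes had groups that did not overlap in one direction or the other. The log2 fold change was -1.24 (SE 0.0607, adjusted p = 1.76e-29, edgeR). That value ranked 84 from the lowest of the 4505 genes.

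Ght5 (SPCC1235.14.1) had 187, 167 and 158 CPM in delta4dus, against 484, 532 and 513 CPM in wild type, again with no overlap. The log2 fold change was -1.58 (SE 0.0701, adjusted p = 7.97e-32, edgeR), which ranked 52 from the lowest. Per library, ght5 had 0.621, 0.555 and 0.564 footprints for each ght8 footprint in delta4dus, against 0.724, 0.716 and 0.743 in wild type. The lower ratio in delta4dus gave p = 0.1 in a two-sided exact permutation test, the smallest value that 3 against 3 libraries allow. Since these genes share many windows, the ratio depends on how shared reads were assigned. Their summed level, which does not change with reads moved between the pair, was 464 ± 24.9 CPM in delta4dus and 1210 ± 60.4 CPM in wild type (SD, n = 3 each).

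Ght1 (SPCC548.07c.1), next to ght8 on the chromosome, had 47.4, 40.4 and 41.1 CPM in delta4dus, against 82.2, 120 and 84.5 CPM in wild type. The groups did not overlap, and wild-type library B, the shallowest, stood above the other wild-type libraries. The log2 fold change was -1.10 (SE 0.143, adjusted p = 1.34e-09, edgeR). Ght6 (SPCC1235.13.1), a lower-level carrier, had 16.8, 14.9 and 12 CPM in delta4dus, against 29.6, 48.3 and 30.2 CPM in wild type. Here too wild-type library B was the highest, and the groups did not overlap. The log2 fold change was -1.24 (SE 0.232, adjusted p = 1.15e-05, edgeR). Without wild-type library B, ght1 stood at -0.96 (adjusted p = 2.21e-07) and ght6 at -1.05 (adjusted p = 0.000481) on the same scale, and both calls held. Ght1 shares 202 windows of 28 nt with ght5 and 227 with ght8, and ght6 shares 99 with each. How shared reads were assigned is not given, so these falls were not shown to be separate from those of ght5 and ght8.

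Ght2 (SPBC4B4.08.1), which takes up glucose and fructose, went the other way, with 98.5, 86.7 and 85.5 CPM in delta4dus, against 43.8, 59.2 and 49.5 CPM in wild type. Each delta4dus library exceeded each wild-type library, as in 19% of the genes tested. The log2 fold change was 0.88 (SE 0.139, adjusted p = 2.16e-07, edgeR), and it ranked 110 from the highest.

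Ght4 (SPBC1683.08.1) had only 3 to 23 counts per library. Its level was 6.86, 5.85 and 5.39 CPM in delta4dus, against 12.6, 4.68 and 9.65 CPM in wild type, and the groups overlapped. The log2 fold change of -0.77 (SE 0.372) had an adjusted p of 0.119 in edgeR's test. Without wild-type library A it was -0.32 (adjusted p = 0.734).

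Ght3 (SPAC1F8.01.1), the gluconate carrier, had 0, 0 and 3 footprints in delta4dus, against 1, 0 and 0 in wild type. A further carrier gene, ght7, had 0 footprints in all 6 libraries. A floor of 3 counts in a library equals 1.24 to 1.87 CPM in delta4dus and 1.64 to 4.68 CPM in wild type, for counting error only, so a level of ght3 or ght7 under that was not detectable at this depth.

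The glucose-repressed enzymes were at or near that floor. Fbp1 (SPBC1198.14c.1), the fructose bisphosphatase of gluconeogenesis, had 1, 4 and 0 footprints in delta4dus, against 1, 1 and 5 in wild type. Inv1 (SPCC191.11.1), the secreted invertase that splits sucrose, had 7, 2 and 5 footprints in delta4dus, against 4, 4 and 1 in wild type. Neither gene had more than 7 footprints in any library, the groups overlapped for both, and a difference between genotypes was not detectable at this depth. A footprint count falls with fewer messenger RNAs or with fewer ribosomes on each, and footprints alone cannot tell these apart.

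**Figure D2:**
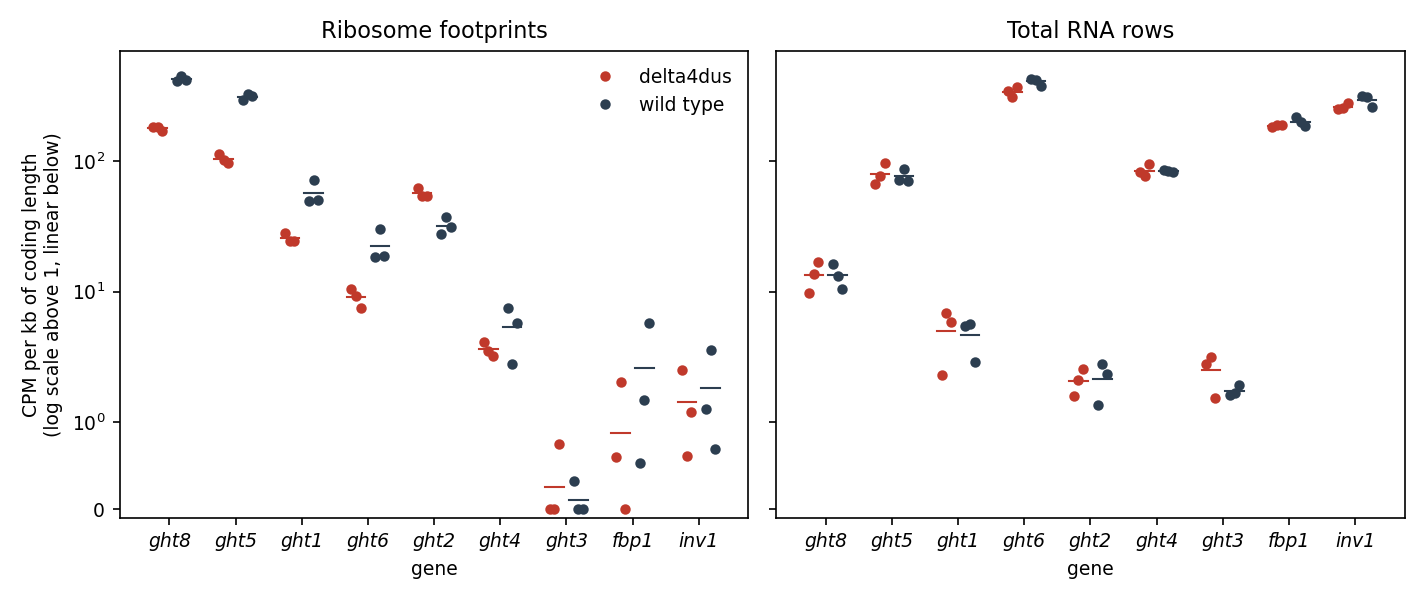
Level of each of the 9 genes in every library, as CPM per kb of coding length on a log scale that is linear below 1, for footprints (left) and total RNA rows (right), with a point per library and a bar at the group mean. In footprints the delta4dus points of ght8, ght5, ght1 and ght6 lie below the wild-type points and those of ght2 above, while in total RNA rows the genotypes overlap for every gene but ght6.

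**Figure D3:**
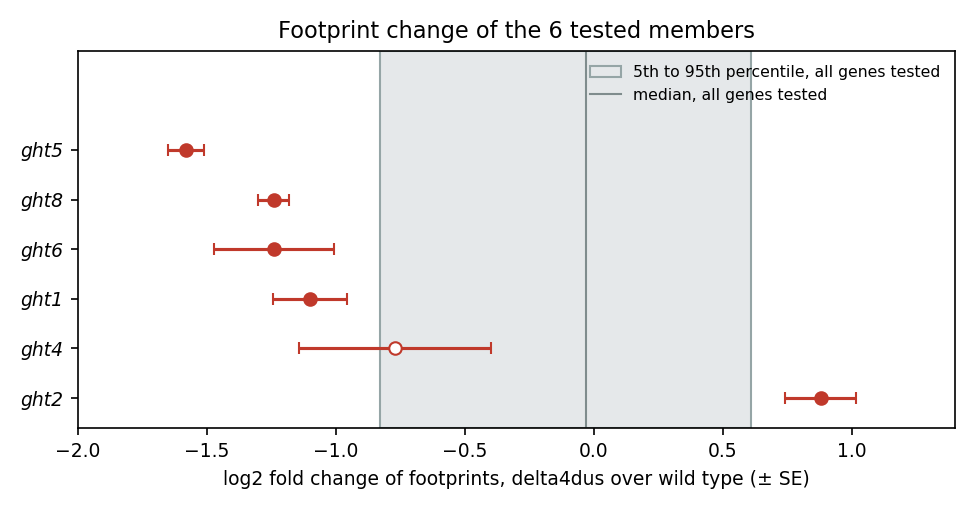
Log2 fold change of footprints, delta4dus over wild type, with its SE for the 6 genes that could be tested, filled where the adjusted p was under 0.05, over the 5th to 95th percentile of all tested genes (-0.83 to 0.61). Ght5, ght8, ght6 and ght1 lie below that band, ght2 above it, and ght4 inside it with an open symbol.

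Per kb of coding length, footprint levels in delta4dus ran in the order ght8 (179 ± 7.09 CPM per kb), ght5 (104 ± 9.09), ght2 (56.5 ± 4.52), ght1 (25.7 ± 2.3), ght6 (9.07 ± 1.5) and ght4 (3.61 ± 0.448) (SD, n = 3), with no overlap between neighbours. In wild type the order was ght8 (426 ± 22.8 CPM per kb), ght5 (311 ± 14.5), ght1 (57.1 ± 12.7), ght2 (31.9 ± 4.88), ght6 (22.4 ± 6.63) and ght4 (5.36 ± 2.39) (SD, n = 3), where ght2 overlapped ght6, and ght4 overlapped fbp1 below it. Ght2 thus stood above ght1 in delta4dus and below it in wild type. The lowest 3 places were taken by inv1, fbp1 and ght3 in delta4dus and by fbp1, inv1 and ght3 in wild type, at 2.6 CPM per kb or less.

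Summed over the 7 ght genes, footprints came to 658, 615 and 584 CPM in delta4dus, against 1322, 1506 and 1377 CPM in wild type. The log2 difference was -1.18, with an exact permutation p of 0.1, the smallest possible here. The sum of ght1, ght5, ght6 and ght8 alone was 522 ± 30.4 CPM in delta4dus and 1342 ± 90.8 CPM in wild type (SD, n = 3 each).

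The make-up of the carrier footprints differed as well, a measure that does not depend on scaling between libraries. Ght2 made up 15%, 14.1% and 14.6% of all ght footprints in delta4dus, against 3.32%, 3.93% and 3.59% in wild type. Ght5 made up 28.4%, 27.1% and 27.1% in delta4dus, against 36.6%, 35.3% and 37.2% in wild type. Ght8 held 47.6% ± 1.58 in delta4dus and 50% ± 0.672 in wild type (SD, n = 3 each). In all 3 cases the groups did not overlap and the two-sided exact permutation p was 0.1, the smallest possible. Groups did not overlap in footprint level for 38.8% of all genes tested. The shares of ght5 and ght8 also depend on how reads common to them were assigned, which is not given. Shares add up to 100%, so a larger share of ght2 lowers the rest, and the lower share of ght8 rested on ght2. With ght2 left out of the sum, a setting chosen after seeing the data, ght8 held 53.8%, 56.9% and 56.3% in delta4dus, against 52.3%, 51.3% and 52% in wild type, which turned its direction. Ght5 then held 32.2% ± 1.05 in delta4dus and 37.8% ± 0.952 in wild type (SD, n = 3 each), still lower. Among all 7 genes, the shares of ght1, ght6, ght4 and ght3 overlapped between genotypes. Ght1 held 6.94% ± 0.323 in delta4dus and 6.77% ± 1.04 in wild type (SD, n = 3 each).

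**Figure D4:**
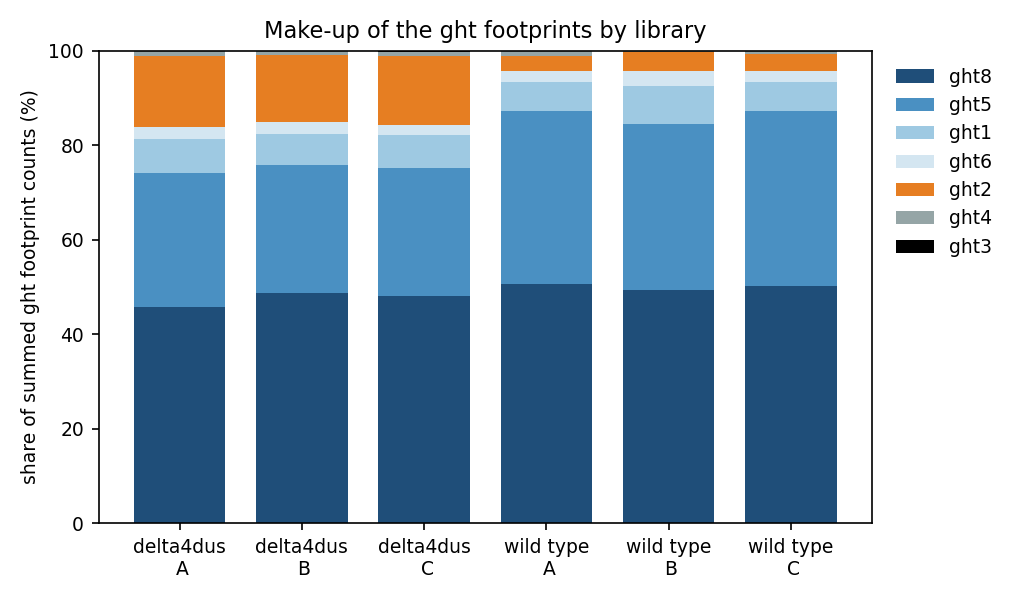
Share of each ght gene in the summed ght footprint counts, in percent, as a stacked bar for each of the 6 footprint libraries. The ght2 segment is 14.1% to 15% in the delta4dus libraries and 3.32% to 3.93% in the wild-type libraries, and the ght5 segment is narrower in delta4dus.

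All 4 genes with lower footprints lie on chromosome III, in the order ght6, ght5, ght8, ght1, a position that was looked up after the values were seen. Ght2, ght4 and fbp1 are on chromosome II, ght3 on chromosome I, and inv1 elsewhere on III. Between ght6 and ght5 lie 2 protein-coding genes, between ght5 and ght8 lie 4, and ght8 and ght1 are neighbours. Of these 6 intervening genes 4 were tested and none was called, beside 28.6% called of all genes tested. Those 4 are too few to set against that share. The lipid enzyme gene dga1 had a log2 fold change of -0.16 (adjusted p = 0.508, edgeR), wtf4 -0.30 (0.716), urm1 0.01 (0.98) and dbl5 0.19 (0.618), and SPCC1235.17 and SPCC1235.18 were not tested. The 4 genes are on both strands, ght6 and ght5 on plus and ght8 and ght1 on minus.

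Letters of known control sites were searched in the 1000 bases before each start codon, on both strands, in 5144 genes of the same RefSeq assembly. These windows may reach into neighbouring genes. CCCCGC, one of the forms bound by Mig1, the relative of Scr1 in budding yeast, occurred in ght8 (2 times), ght5, ght1 and ght4 (1 each), against 2.7% of all genes. CCCCAC, another form of it, was in ght8 and ght3, against 8.11% of all genes. CCCCTC, the stress response element bound by Rst2, was in ght5, ght3 and fbp1, against 7.48%. TGACGT, the cAMP response element bound by Atf1 with Pcr1, was in ght2 (2 times), ght3 and ght4, against 14.8%. No match overlapped a match of another motif, and a match is a run of letters, not a shown site. Printed here are the CCCCGC matches of 4 genes and both TGACGT matches of ght2, the only carrier with higher footprints. They were picked with the footprint values known, and the other matches are not printed. Each has 12 bases on each side, 5′ to 3′ on the coding strand, with the motif in capitals.
ght8, 530 bases before the start codon: gtcaaggacactCCCCGCaaccccgcaagc
ght8, 522 bases before the start codon: cactccccgcaaCCCCGCaagcgccccaca
ght5, 753 bases before the start codon: tcatacacttaaCCCCGCatccaaggtatg
ght1, 761 bases before the start codon: aatttgcagtatCCCCGCatttggttgagt
ght4, 970 bases before the start codon: tacggagatcgtCCCCGCggaaaagtcttt
ght2, 969 bases before the start codon: tgctaaaattatTGACGTtggaatacactc
ght2, 545 bases before the start codon: cttgtaatattgTGACGTataaccaaaaac
Ght5 and ght8, the highest-level carriers, and ght1 held CCCCGC and no TGACGT. Ght2 and ght3 held TGACGT and no CCCCGC, while ght4, which was not called, held both. A relation of these motifs to the footprint changes was not tested. Ght6, whose footprints were also lower in delta4dus, held none of the 4 motifs, and neither did inv1.

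Among the other genes of glucose signalling and sugar use, 59 were taken in 6 lists and 53 could be tested in footprints, of which 4 were higher, 15 were lower and 34 did not pass. That is 35.8% called, beside 28.6% of all genes, and the median log2 fold change was -0.17 over the lists and -0.03 over all genes. Of all genes tested 14.1% were lower and 14.5% higher, and no list was tested against these shares. Of the repressors and activators of glucose-repressed genes, 1 of 10 was higher, 2 were lower and 7 did not pass. Scr1, which encodes the repressor, had 38.7, 43.6 and 41.9 CPM in delta4dus, against 78.9, 82.6 and 62.8 CPM in wild type (log2 fold change -0.86, adjusted p = 1.85e-06, edgeR). Atf1, a transcription factor of the stress response that also activates fbp1, had 103, 118 and 122 CPM in delta4dus, against 58.1, 51.5 and 57.9 CPM in wild type (log2 fold change 1.02, adjusted p = 1.72e-10, edgeR). Neither gene's groups overlapped, as held for 38.8% of all genes tested. Php2, a subunit of the CCAAT-binding factor, had a log2 fold change of -0.66 (adjusted p = 0.000547, edgeR), a call lost when libraries were thinned to equal depth (-0.55, adjusted p = 0.0793). The activator gene rst2 stood at -0.05 and the co-repressor genes tup11 and tup12 at -0.27 and -0.02, and none of these passed.

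Of the 10 genes of glucose sensing by cAMP and protein kinase A, 2 were lower and 8 did not pass. Those were cyr1, the adenylate cyclase (-0.55), and cgs1, the regulatory subunit of the kinase (-0.49), and the kinase gene pka1 itself did not pass (0.27). In the AMP-activated kinase group, ssp1 (-0.42) and ssp2 (-0.31) were lower and 2 of 4 did not pass. Of 15 genes of the TORC2 and Gad8 kinases and of transporter trafficking, through which Ght5 is placed at the cell surface, 5 were lower and 10 did not pass. The 5 include tor1 (-0.72), tsc2 (-0.62) and the ubiquitin ligase gene pub3 (-0.54). These counts stand beside 14.1% lower among all genes tested, and the lists are small. The calls of cyr1, cgs1, ssp1, ssp2, tor1, tsc2 and pub3 were each lost under some setting, with adjusted p-values up to 0.576, 0.125, 0.728, 0.178, 0.443, 0.189 and 0.0766 in that order. Sizes moved too: with the coding length offset tor1 stood at -0.24, cyr1 at -0.19 and tsc2 at -0.34, and ssp1 stood at -0.18 without wild-type library A and -0.15 when thinned, while cgs1 stood at -0.96 when thinned.

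Of 7 tested genes of sugar use, 2 were higher and 5 did not pass, beside 14.5% higher and 14.1% lower among all genes tested. The galactokinase gene gal1 had 46.1, 56.9 and 47.7 CPM in delta4dus, against 31.2, 12.5 and 14.5 CPM in wild type (log2 fold change 1.13, adjusted p = 4.73e-06, edgeR). Without wild-type library A, the highest of its group, gal1 stood at 1.89 (adjusted p = 3.4e-06). Gal10 stood at 1.42 (adjusted p = 0.00704), but at 0.82 (0.275) without wild-type library A. The hexokinase genes hxk1 and hxk2 were at -0.07 and 0.05 and did not pass. Of 7 tested genes of glycerol and malate use, 1 was higher, 4 were lower and 2 did not pass. Gpd1, the glycerol phosphate dehydrogenase of the osmotic response, had 1716, 1736 and 1711 CPM in delta4dus, against 1081, 1193 and 1073 CPM in wild type (log2 fold change 0.63, adjusted p = 4.67e-18, edgeR). The malate carrier gene mae1 had a log2 fold change of -0.53 (adjusted p = 3.31e-07). Gld1, a glycerol dehydrogenase, had 3.12, 1.06 and 0.83 CPM in delta4dus, against 5.48, 12.5 and 6.03 CPM in wild type (log2 fold change -2.15, adjusted p = 0.00115, edgeR). These are 5, 2 and 2 footprints in delta4dus, against 10, 8 and 5 in wild type, so delta4dus libraries B and C are under the floor of 3 counts and the size of the fold is poorly measured. Without delta4dus library A it stood at -2.82 (adjusted p = 0.00026).

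The genes whose footprint pattern over the 6 libraries lay closest to that of ght5 were dsd1, pho1 and SPBC409.08, of 3820 genes with a mean of at least 20 counts. Likeness was the root mean square difference of centred log2 CPM, which was 0.093 for dsd1, the dihydroceramide desaturase, and 0.127 for pho1, an acid phosphatase, and for SPBC409.08, annotated as a spermine family transporter. Since ght5 differs mostly by genotype, this measure picks genes with about the same fold change. Ght8 was 8th in that order, ght6 30th and ght1 32nd, while ght2 was 3703rd.

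The total RNA table was not read as the messenger RNA of these genes. Across 5107 rows with a coding length, the total RNA level had a Spearman correlation of -0.101 with the footprints of the same row, both per kb. For the 1908 rows that overlap an annotated row on the opposite strand, levels were not divided by length, so row length was not taken out. There the correlation of total RNA was -0.242 with their own footprints and 0.153 with those of the opposite-strand row. It was 0.686 with the length of the overlap alone and 0.695 with that length times the footprint density of the opposite-strand row. These are descriptions across genes, which are not independent. The total RNA row of dus1 held 81, 81 and 64 counts in delta4dus, against 45, 46 and 42 in wild type, although its footprints were at 0 in delta4dus. Among the 9 genes, ght6 and fbp1 are covered over 100% of their coding length by an annotated noncoding RNA on the opposite strand (SPNCRNA.1118 and SPNCRNA.1324). Such RNAs cover 89% of ght2, 64.2% of ght8, 45.5% of ght4, 22.1% of ght3 and 2.57% of ght1, and none is annotated opposite ght5 or inv1. What the total RNA rows of these genes hold was not tested row by row.

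In delta4dus and wild type alike, the total RNA rows had another order than the footprints. Ght6 was highest with 340 ± 30.5 CPM per kb in delta4dus and 407 ± 25.2 in wild type (SD, n = 3 each). Inv1 had 260 ± 14.9 in delta4dus and 295 ± 29.4 in wild type, and fbp1 185 ± 4.06 in delta4dus and 200 ± 15.2 in wild type. Ght8, the highest in footprints, had 13.4 ± 3.53 in delta4dus and 13.3 ± 3.01 in wild type. Of the 7 rows tested only ght6 was called, beside 22.9% of all 3791 rows, 10.4% lower and 12.5% higher. With DESeq2's size factors the split over all rows was 527 lower and 376 higher, against 394 lower and 475 higher with TMM. The ght6 row held 551, 496 and 594 CPM in delta4dus, against 683, 673 and 609 CPM in wild type (log2 fold change -0.26, SE 0.0727, adjusted p = 0.0191, edgeR). Its groups did not overlap, as in 37% of all rows tested, with delta4dus below in 15.9% and above in 21.1%. That call was lost without delta4dus library A (adjusted p = 0.0683), delta4dus B (0.11) or wild-type A (0.0802). The inv1 row stood at -0.18 (adjusted p = 0.103, edgeR), but at -0.30 (0.00465) without wild-type library C. The ght5 row stood at 0.06 and the ght8 row at 0.00, and neither passed.

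**Figure D5:**
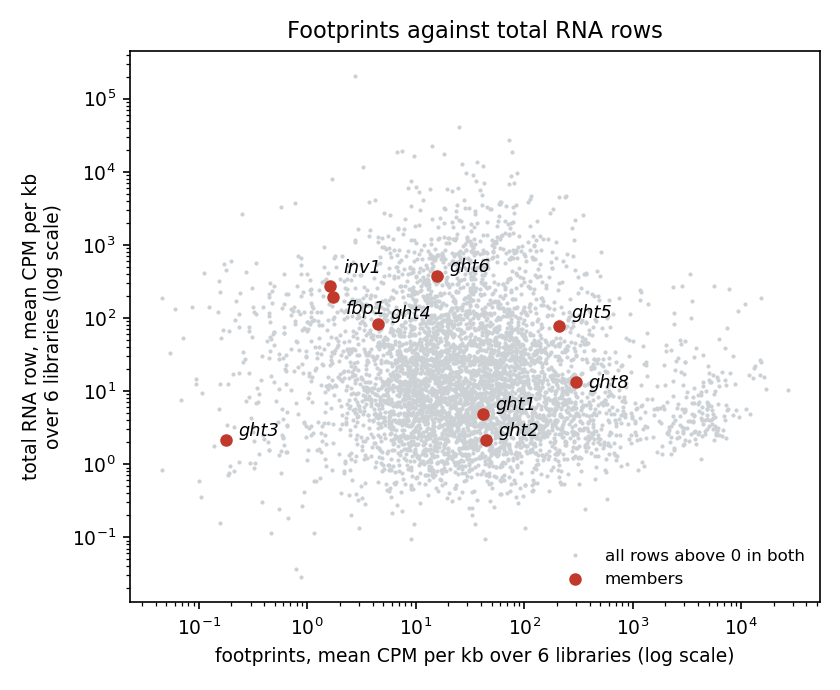
Mean level over the 6 footprint libraries against mean level over the 6 total RNA libraries, both as CPM per kb on log scales, for all rows above 0 in both (grey) and for the 9 genes (red). The inv1 and fbp1 rows sit far to the left and high, while ght8 lies to the right and low.

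The ratio of footprints to the total RNA row was compared between genotypes as the interaction of genotype and assay in one edgeR model. It is given for these rows as they stand, not as translational efficiency, because total RNA rows did not follow their own footprints across the table. Of the 5 genes tested, 4 were lower, beside 20.2% of all 3330 genes called, 13.9% lower and 6.34% higher. The log2 change of the ratio was -1.60 for ght5 (adjusted p = 2.69e-10), -1.21 for ght8 (8.52e-05), -0.94 for ght6 (0.00445) and -1.14 for ght1 (0.0367), all edgeR. Ght4 did not pass (-0.76, adjusted p = 0.129). For ght6 the call was lost without delta4dus library C (adjusted p = 0.0558). For ght1, whose total RNA row held 9 to 24 counts, it was lost without delta4dus B (0.265), delta4dus C (0.153), wild-type B (0.0531) or wild-type C (0.138). It was also lost with DESeq2's size factors (0.0504), with DESeq2 (0.0553), with the coding length offset (0.0578) and when thinned (0.095), so 5 of 13 alternatives kept it.

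The authors' deposited table lists log2 fold changes of footprints of -1.489 for ght5, -1.158 for ght8, -1.184 for ght6, -1.036 for ght1 and 0.9551 for ght2. The headers of the authors' deposited table do not say what its p-values test. Its ratio change for ght2, a row with too few total RNA counts for the edgeR test here, is 1.274, beside an adjusted p of 0.04578, and the authors' deposited table puts ght2 in its mode "none". With no filter on low counts, edgeR gave that ratio a log2 change of 0.97 that did not pass (adjusted p = 0.18). The ght2 row held 4 to 8 total RNA counts per library. For ght1 and ght6 the authors' deposited table has adjusted p-values of 0.07081 and 0.1541, and for ght5 and ght8 8.21e-23 and 0.0001842, and it puts all 4 in its mode "translational". It gives fbp1, a gene with 0 to 5 footprints per library in the deposited counts, a footprint log2 fold change of -1.428. The same mode "translational" is listed for fbp1, beside an adjusted p of 0.7435.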

How the data were processed

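Ribosome footprints and total RNA were measured in delta4dus and wild type, 3 libraries each. The authors deposited a table of whole-number read counts for each assay, with a row per transcript, used as deposited. The submitters' processing notes name Trimmomatic 0.36, Bowtie2 2.4, HISAT2, featureCounts and the ASM294v2 build, with no strand setting. Their deposited comparison table gives log2 fold changes and p-values, per the file headers, with no tool named. Count columns were matched to samples by genotype and letter, with 0 left over. Of 5136 rows, 5107 matched RefSeq ASM294v3 by systematic ID, which gave names, coding lengths and sequences. Positions in that assembly also gave gene order, strands, overlaps on the opposite strand and the bases before each start codon. No chromosome coordinates are printed, since the builds differ.

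The members and gene lists were chosen with earlier results of these data known. Named genes were the 9 members, ght7 and the dus genes, up to 3 called genes per list with the smallest p, and the 3 genes most like ght5; other genes named among the lists or between the ght genes were chosen after their values were seen. The lists covered glucose sensing by cAMP and protein kinase A, repressors and activators, AMP-activated kinase, TORC2 and trafficking, sugar use, and glycerol and malate use.

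Each assay was fitted alone in R 4.3.3 with the two-sided quasi-likelihood test of edgeR 4.0.16 after filterByExpr at its defaults and TMM, with Benjamini-Hochberg adjustment, and the ratio as the interaction over 12 libraries. The SE is the log2 fold change over the square root of the F statistic. The scripts were tested on simulated data. Alternatives used DESeq2 1.42.0, other filters, a letter block, a coding length offset, thinning to equal depth, fits without each library and, added after seeing the data, shares with ght2 left out. Alignments and windows used biopython 1.88. Nothing says that the letters are separate cultures, so p-values may measure technical spread. No replicate pair was as close as sampling alone, with chi-square per degree of freedom of 1.45 to 1.66 (footprints) and 1.75 to 4.57 (total RNA).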

Additional observations from a re-analysis of the deposited data

How the results depend on the processing

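In footprints, ght1, ght5, ght6 and ght8 stayed called lower and ght2 called higher under every alternative that could test them, with log2 fold changes of -1.23 to -0.96, -1.64 to -1.51, -1.55 to -1.05, -1.30 to -1.19 and 0.73 to 0.97 in that order. Ght6 could not be tested at a mean of at least 50 counts. No alternative changed how reads shared between ght genes were assigned, so ght1, ght3, ght4, ght5, ght6 and ght8 remain uncertain as single genes. Of all genes, thinning to equal depth called 414 higher and 345 lower, against 654 and 635, and DESeq2 called 483 and 335. Thinning leaves fewer counts and a left-out library fewer samples by construction, and the cause of the other shifts was not tested. In total RNA, calls over all rows were 229 higher and 420 lower with DESeq2, which turned the balance of directions, and 262 to 434 higher and 187 to 478 lower when one library was left out, against 475 and 394. Of the 9 genes, 2 total RNA rows were called lower with DESeq2's size factors and 0 to 2 without one library. In the ratio, a mean of at least 50 counts left 89 higher and 137 lower with 1 of the 9 genes, thinning 114 and 237, DESeq2 212 and 283, and leaving out a library 139 to 205 higher and 287 to 372 lower with 2 to 4 of the 9, against 211 and 463 with 4. At a mean of at least 50 counts only ght5 of the 9 could be tested in the ratio, and its call held.

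Among the log2 fold changes, signs turned only for total RNA rows that passed no test. The ght4 row stood at -0.05 with DESeq2's size factors and with DESeq2, -0.01 with no filter on low counts, -0.01 with the coding length offset, -0.01 when thinned and -0.08 to 0.08 without one library. The ght5 row stood at -0.01 with DESeq2's size factors and with DESeq2 and -0.10 to 0.17 without one library. The ght8 row stood at 0.04 when thinned and -0.20 to 0.19 without one library, and the ght1 row at -0.25 to 0.44. Per kb of coding length and without any one library, the differences in share among ght footprints moved by less than the pooled SD of the 2 genotypes. Small ones still changed sign without one library: ght1 ran from -0.154 to 0.764 points, ght6 from -0.375 to 0.134 and ght3 from -0.0138 to 0.0928. With ght2 left out of the sum, chosen after seeing the data, the difference was 3.79 points for ght8 (against -2.45), -5.52 for ght5 (against -8.86) and 1.1 for ght1 (against 0.166). The ght6 difference then also turned, to 0.106 (against -0.198), and ght4 (0.46 against 0.318) no longer overlapped between genotypes (exact permutation p = 0.1, against 0.3).

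Libraries of the same letter deviated together at most weakly. In footprints, same-letter correlations between genotypes were 0.016 to 0.073, above the -0.056 to 0.003 of other letters. In total RNA they were -0.285 to -0.008, against -0.184 to 0.195 for other letters. The same-letter values are small or negative, so the letters were not taken as pairs. With the letter as a replicate block, total RNA calls were 297 higher and 197 lower, with 0 of the 9 genes, and the ght6 row had an adjusted p of 0.0689. The depth of wild-type footprint libraries B and C limits ght3, ght4, fbp1 and inv1.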
